A study of Mus musculus with 2 samples.

Results

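The histone genes of the mouse were followed in livers that had received an adenovirus carrying PDK4 (Ad-PDK4, pyruvate dehydrogenase kinase 4) and in livers that had received the empty vector (Ad-control). A gene was a member when a probe set of the array (a group of short probes for a transcript) listed it alone and its name began with Hist1h, Hist2h, Hist3h, Hist4h, H2af, H1f or H3f. The annotation now uses renamed histone symbols, so older names were taken from RefSeq through the gene identifier. This gave 24 genes of 18193 named genes, of which 10 were replication-dependent cluster genes, 13 were replacement variants and 1, H1f6, was a cluster gene of male germ cells. The symbols of the annotation alone would have given 8 genes. All mice were C57BL/6J, 2 months old, and were injected into the tail vein with 1000000000 plaque-forming units. Livers were taken after 3 days, and RNA of 3 mice (Ad-PDK4) or 4 mice (Ad-control) was pooled, so that each group is 1 array of 1 pool. There was no replicate, no p-value was computed, and every difference below is between these pools.

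Histones package DNA into nucleosomes, in which DNA is wound around pairs of H2A, H2B, H3 and H4, with H1 on the linker DNA. Replication-dependent genes lie in clusters, are transcribed mainly during S phase and make mRNAs that end in a stem-loop instead of a poly(A) tail. Replacement variants such as H3.3, H2A.Z and macroH2A are made throughout the cell cycle from polyadenylated mRNAs and mark particular regions of chromatin. The usual Affymetrix labelling primes on poly(A) tails. The sources used here do not name the primer, and how far priming set the signal of the cluster genes was not tested.

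Some facts of both arrays bear on the histone values. Signals below the median of an array (99.9 for Ad-PDK4, 93.4 for Ad-control) were treated as under the floor. Where 1 of the arrays was under its floor, the fold is given as a bound, written "at least". Differences are log2 Ad-PDK4 minus log2 Ad-control, centred on the median probe set. Probe sets of the same gene disagreed with an SD of 0.35 on this log2 scale (4326 genes), a measure that does not hold the spread between mice or between hybridisations. Pdk4 itself had a signal of 177 in the Ad-PDK4 pool, against 234 in the Ad-control pool, so the array does not show the overexpression. Whether its probe set reads the transcript of the vector was not tested, and every direction below rests on the labels. The poly-A spike-in controls differed by -0.54, and centring on them would add 0.54 to every log2 difference below. In pooled tissue, more or fewer cells of a type and more or less RNA per cell cannot be told apart.

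The class medians lay close together at the chosen floor, and single members ranged widely. H2ax, H2az1 and H1f10, all replacement variants, were at least 2-fold higher in the Ad-PDK4 pool. Of the replication-dependent genes read by a probe set of their own, the 5 above the floor on both arrays lay within 2-fold, and H3c7 and H3c11 have only bounds. Some probe sets shared by many replication-dependent H3, H4 or H2A genes had larger differences than those 5 genes. Of the 24 members, 15 were above the floor on at least 1 array, 11 of them on both. The 7 measured replication-dependent genes had a median log2 difference of 0.35 and ranged from -0.60 to 0.65. The 8 measured replacement variants had a median of 0.36 and ranged from -0.77 to 1.70. The same pools differed in markers of dividing cells and of exocrine pancreas, whose values are given after the histone genes. The class medians were -0.01 apart (replication-dependent minus replacement), but 0.34 apart under a floor at the 30th percentile, where the replacement median was -0.0070. That floor measured 12 replacement variants, and the 8 measured at the chosen floor kept their signs. Those added were dim, drawn from H1f7, H1f8, H2al2a, H3f3b and the pseudogene Macroh2a3. The 0.34 therefore compares a different set of members. At the chosen floor the median over all 12121 measured genes was 0.02.

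**Figure D1:**
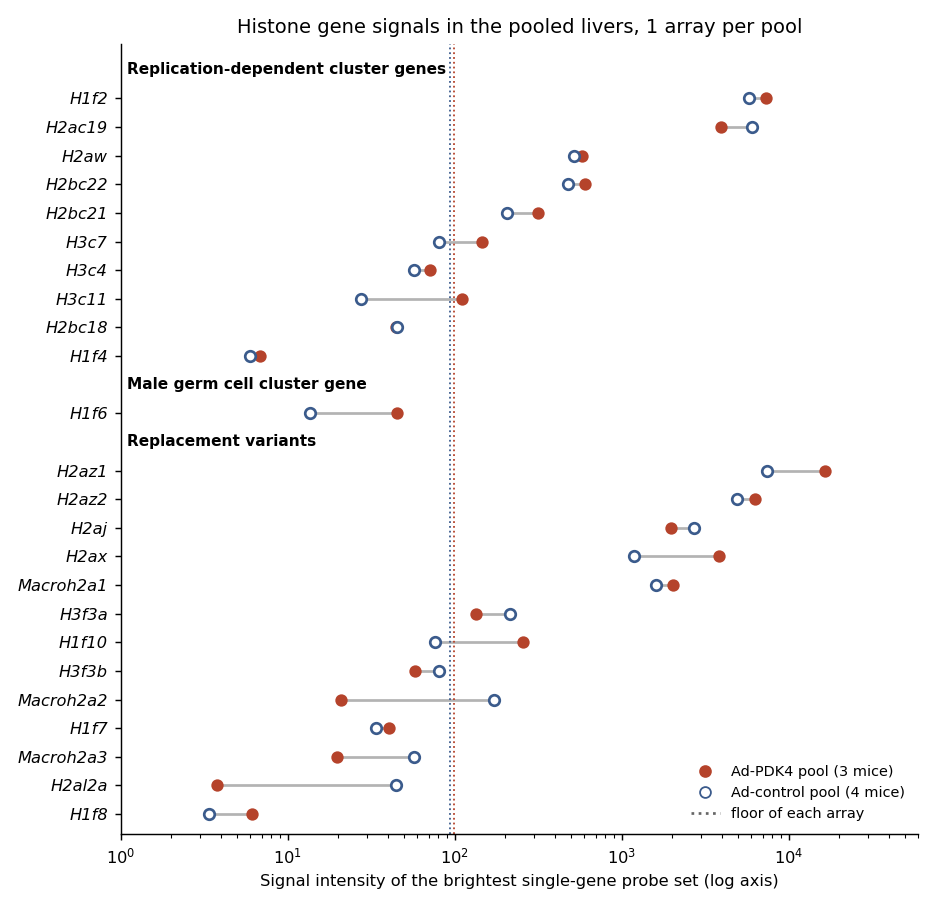
Signal intensity (log axis) of the brightest single-gene probe set of each of the 24 histone genes in the Ad-PDK4 pool (filled) and the Ad-control pool (open), with 1 array per pool and dotted lines at the floor of each array. H2ax, H2az1 and H1f10 lie to the right in the Ad-PDK4 pool, and 9 genes lie under the floor on both arrays.

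At least 1.5-fold higher in the Ad-PDK4 pool were 2 of 7 replication-dependent genes and 3 of 8 replacement variants, where 11.0% of all measured genes were. At least 1.5-fold lower were 1 of 7 replication-dependent genes and 2 of 8 replacement variants, where 5.58% of all measured genes were. At 2-fold, with bounds taken at the bound, the counts were 0 of 7 and 3 of 8 on the higher side, with 3.58% over all genes, and 0 in both classes on the lower side, with 0.891% over all genes. These counts depend on the floor: at the 30th percentile the bound of H3c11 was a log2 difference of 1.63 and that of Macroh2a2 was -2.15, both past 2-fold. A total of 6 of 7 replication-dependent genes and 5 of 8 replacement variants were above 0, where 6305 of all 12121 measured genes were. With so few measured members, 1 gene moves these shares by more than 10 percentage points. The replacement class held differences in both directions, and its median stands for none of its leading members. Its 2 lower genes are uncertain: H3f3a is dim and brighter shared H3.3 sets lay above 0, and Macroh2a2 has only a bound.

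H2ax encodes H2A.X, the H2A form that is phosphorylated around DNA double-strand breaks, and its gene makes both stem-loop and polyadenylated mRNA. Its only probe set had a signal of 3809 in the Ad-PDK4 pool, against 1186 in the Ad-control pool. This is a log2 difference of 1.70, or 3.25-fold. Measured genes of similar brightness had an SD of 0.41 among their differences.

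H2az1 encodes H2A.Z, a variant found at promoters and enhancers that is exchanged into nucleosomes by remodelling complexes. It gave 16520 in the Ad-PDK4 pool and 7479 in the Ad-control pool, a log2 difference of 1.16 (2.23-fold), where genes of similar brightness had an SD of 0.34. Its second single-gene probe set gave 8448 in the Ad-PDK4 pool and 5232 in the Ad-control pool, a log2 difference of 0.71. A pair of further probe sets lists H2az1 together with a pseudogene. They read 20133 and 2743 in the Ad-PDK4 pool, against 10391 and 1825 in the Ad-control pool, with log2 differences of 0.97 and 0.60. All 4 probe sets thus had the higher signal in the Ad-PDK4 pool.

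H2az2, the gene of the second H2A.Z protein, differed less. Its brighter probe set had 6300 in the Ad-PDK4 pool and 4917 in the Ad-control pool (log2 difference 0.37), and its dimmer one 339 and 261 in the same order (0.40). Both lie within 1.5-fold and close to the SD between probe sets of a gene. The H2A.Z pair therefore had the same sign but unequal sizes on these arrays, and the difference between them was not tested.

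H1f10, a replacement linker histone also called H1X, was under the floor on the Ad-control array. Its signal was 258 in the Ad-PDK4 pool and 76.8 in the Ad-control pool, at least 2.78-fold higher against the floor. Under a floor at the 30th percentile H1f10 was measured on both arrays, with a log2 difference of 1.75, beside 1.68 for H2ax. A floor at the 70th percentile left H1f10 without a value.

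Macroh2a1 and Macroh2a2 encode macroH2A proteins, H2A forms with a large C-terminal macro domain that are linked to silent chromatin. Macroh2a1 gave 2037 in the Ad-PDK4 pool and 1611 in the Ad-control pool, a log2 difference of 0.35. Macroh2a2 gave 20.9 in the Ad-PDK4 pool, under the floor, and 172 in the Ad-control pool, at least 1.71-fold lower in the Ad-PDK4 pool. Its single-gene probe set is of the kind whose probes can match several transcripts, and a floor at the 70th percentile left it without a value. A probe set that lists Macroh2a2 with the pseudogene Macroh2a3 had 118 in the Ad-PDK4 pool and 212 in the Ad-control pool, a log2 difference of -0.83. The dim macroH2A signals were thus lower and the bright one slightly higher in the Ad-PDK4 pool.

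H2aj, which encodes the H2A.J variant, gave 1990 in the Ad-PDK4 pool and 2712 in the Ad-control pool, a log2 difference of -0.43. Its second measured probe set was at -0.09, and centring on the poly-A spike-ins turned H2aj to 0.11. H2aj lay within 1.5-fold in every one of these readings.

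H3f3a and H3f3b both encode H3.3, the replacement H3 laid down at active genes and telomeres, and their own probe sets were dim. H3f3a had 134 in the Ad-PDK4 pool and 216 in the Ad-control pool, a log2 difference of -0.68 among the dimmest measured genes, whose SD was 0.53. H3f3b had 58.2 and 81.2 in the same order, under the floor on both arrays. Another 5 probe sets list H3f3a, H3f3b and 4 related genes together and were far brighter, from 8267 to 25975 in the Ad-PDK4 pool and from 6044 to 23073 in the Ad-control pool. Their log2 differences ran from 0.07 to 0.50, all above 0. The dim H3f3a probe set and the bright shared sets therefore pointed in opposite directions, and the direction of H3f3a is not settled.

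**Figure D2:**
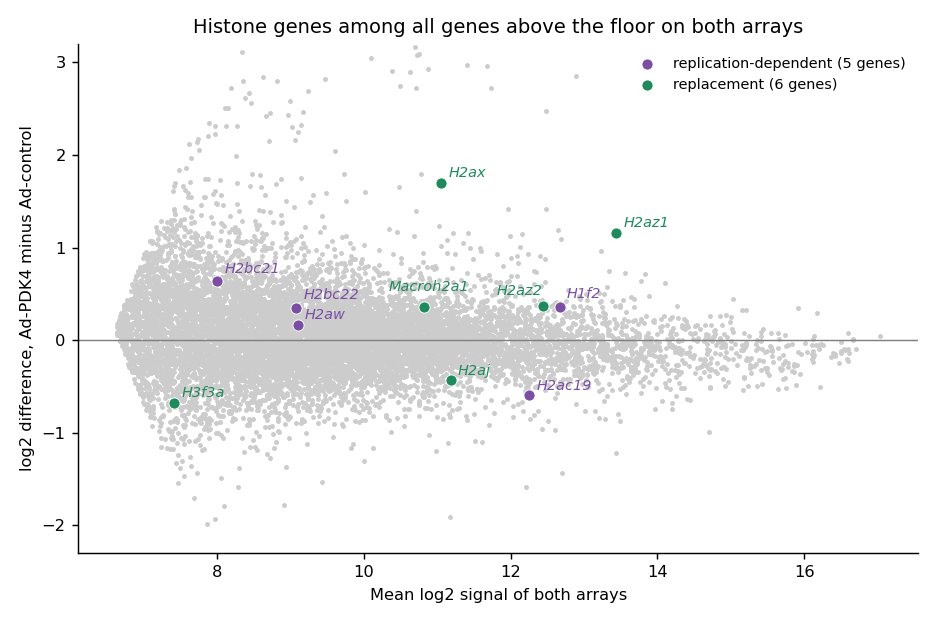
Log2 difference (Ad-PDK4 minus Ad-control) against the mean log2 signal for the 10389 genes above the floor on both arrays (grey), with 5 replication-dependent and 6 replacement histone genes in colour; 13 genes above the axis are not drawn. H2ax and H2az1 lie above most genes of like brightness, but some genes of like brightness lie as high or higher. The other histone genes lie within the cloud of grey points or at its edge.

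Among the replication-dependent genes, the linker histone H1f2 (older name Hist1h1c) was the brightest with a probe set of its own. Its best probe set gave 7314 in the Ad-PDK4 pool and 5785 in the Ad-control pool (log2 difference 0.35), and the next one 3337 and 3403 in the same order (-0.01). Both readings lay within 1.5-fold. H2ac19, an H2A gene outside the main cluster, went the other way. Its probe sets gave 3941 and 1871 in the Ad-PDK4 pool, against 6016 and 3204 in the Ad-control pool, which is 1.51-fold and 1.70-fold lower. The first value lies almost on the 1.5-fold line and fell short of it with loess centring (log2 difference -0.56), after quantile normalization (-0.58) and under a floor at the 70th percentile (-0.58). Centring on the poly-A spike-ins left -0.05. H2ac19 has a near-identical neighbour, H2ac18, whose transcripts these probes may also read, so the reading is uncertain as to the gene.

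The H2B genes with probe sets of their own were slightly higher. H2bc21 gave 317 in the Ad-PDK4 pool and 205 in the Ad-control pool (log2 difference 0.64), and its second probe set 118 and 80.2 in the same order, at least 1.27-fold higher. The median over its probe sets was 0.50, short of 1.5-fold. H2bc22 gave 606 in the Ad-PDK4 pool and 481 in the Ad-control pool (0.35). H2aw, an H2A gene of another cluster, gave 576 in the Ad-PDK4 pool and 519 in the Ad-control pool (0.16), and its second probe set was at 0.26.

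The H3 genes with probe sets of their own were near the floor. H3c7 had 145 in the Ad-PDK4 pool and 80.4 in the Ad-control pool, at least 1.57-fold higher, a bound that fell short of 1.5-fold with loess centring (log2 difference 0.55) and after quantile normalization (0.57). H3c11 had 111 in the Ad-PDK4 pool and 27.5 in the Ad-control pool, at least 1.20-fold higher against the floor. Its bound of 1.63 under the lower floor shows that the size of its difference rests on the floor. H3c4 was under the floor on both arrays, with 71.2 in the Ad-PDK4 pool and 57.1 in the Ad-control pool. The other members under the floor on both arrays were the linker histone gene H1f4, the H2B gene H2bc18, the germ cell linker histone genes H1f6, H1f7 and H1f8, H2al2a, H3f3b and the pseudogene Macroh2a3. Their signals ran from 3.8 to 58.2 in the Ad-PDK4 pool and from 3.4 to 81.2 in the Ad-control pool, and they have no difference.

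Most replication-dependent genes share probe sets, and their coding sequences are nearly identical within a family. A total of 27 probe sets list several genes of which at least 1 is a histone gene of the rule, and they hold 57 such genes, 46 of which have no probe set of their own. These probe sets name no single gene and stay outside the counts above. Of the 18 sets of replication-dependent genes, 11 were above the floor on at least 1 array. Of these 11, 6 were at least 1.5-fold higher, where 10.6% of all measured probe sets were, and 0 were at least 1.5-fold lower, where 7.06% were. At least 2-fold higher were 3 of the 11, where 3.18% of all probe sets were, and 0 were 2-fold lower, where 1.13% were. Their median log2 difference was 0.68, and that of all measured probe sets was near 0. Sets of a family overlap in the genes they list, so they are not independent readings.

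All 3 measured shared H3 sets were at least 1.5-fold higher. One that lists 12 H3 genes had 878 in the Ad-PDK4 pool and 241 in the Ad-control pool, a log2 difference of 1.88. Of 2 sets that list 8 H3 genes, the brighter had 663 in the Ad-PDK4 pool and 389 in the Ad-control pool (0.78), and the dimmer 482 and 74.8 in the same order, at least 5.21-fold higher. Under a floor at the 70th percentile the bound of the dimmer set was a log2 difference of 0.79. The other 2 H3 sets were under the floor on both arrays.

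The shared H4 sets did not give a common size. Each of 5 sets lists the same 13 H4 genes. The brightest had 1930 in the Ad-PDK4 pool and 875 in the Ad-control pool, a log2 difference of 1.16. The next had 460 in the Ad-PDK4 pool and 385 in the Ad-control pool (0.27), and the one after it 362 and 412 in the same order (-0.17). A dim set had 148 in the Ad-PDK4 pool and 32.5 in the Ad-control pool, at least 1.60-fold higher, and the last was under the floor on both arrays. Under a floor at the 30th percentile the bound of the dim set was a log2 difference of 2.05. Sets that list the same H4 genes therefore differed from each other by more than the SD between probe sets of a gene, and in sign.

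The shared H2A set of 10 genes had 2453 in the Ad-PDK4 pool and 1309 in the Ad-control pool, a log2 difference of 0.92. This is opposite in sign to H2ac19, which has its own sets and is not among those 10 genes. Of 6 shared H2B sets, 3 were measured and 3 were under the floor on both arrays. One of 11 genes had 59097 in the Ad-PDK4 pool and 43413 in the Ad-control pool (0.46), and one of 3 genes had 41674 and 32561 in the same order (0.37). Another, with an H2B gene and an H2B pseudogene, had 116 in the Ad-PDK4 pool and 36.2 in the Ad-control pool, at least 1.26-fold higher. Under a floor at the 30th percentile this dim H2B set was measured on both arrays, with a log2 difference of 1.68.

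**Figure D3:**
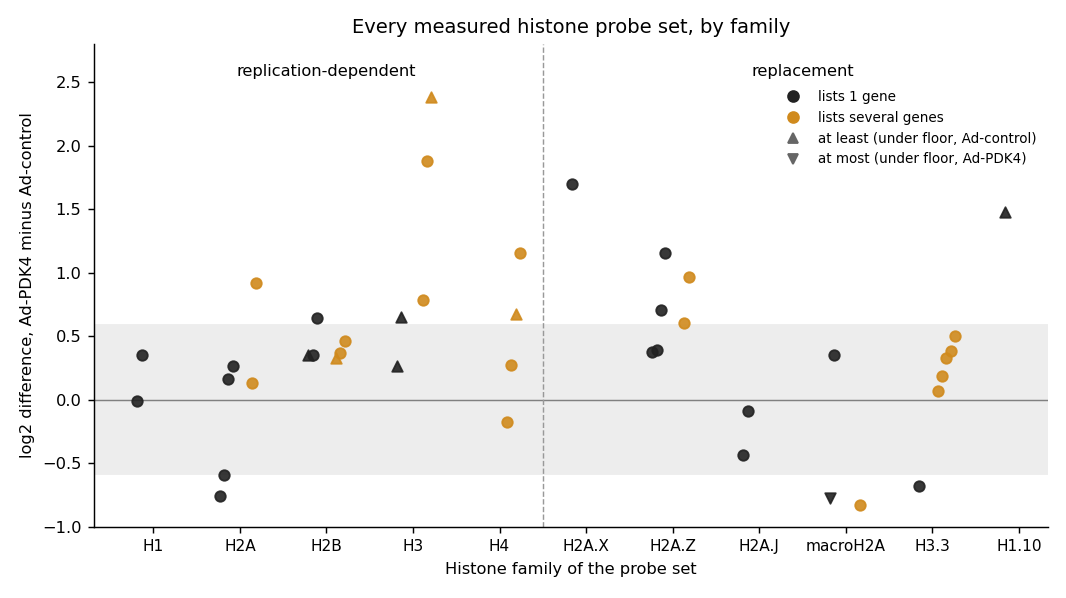
Log2 difference (Ad-PDK4 minus Ad-control) of every histone probe set above the floor on at least 1 array, by histone family, with sets that list 1 gene in black and several genes in orange; triangles are bounds and the grey band is within 1.5-fold. The highest points are 2 shared H3 sets (1.88 and at least 2.38), H2A.X (1.70) and H1.10 (at least 1.48). The H1, H2A, H4, macroH2A and H3.3 families hold sets on both sides of 0.

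Promoter windows were read from RefSeq (build GRCm38.p6, 250 bases before to 50 after the start of each gene) for 20 of the 24 members. Those of 3 replication-dependent genes and of the 2 higher replacement variants with a window are shown, to compare the promoters of both classes. Capitals mark matches, on either strand, to the following motifs. The factor NF-Y binds the CCAAT box, and the basal machinery binds the TATA box, searched as TATAAA. The octamer of Oct-1 was searched by its core, ATTTGCA. An E2F site was searched as TTCGCGC. The H1 box of linker histone promoters was searched as AAACACA. The CHR element of G2 and M phase genes was searched as TTTGAA. None of these motifs contains another.
H1f2, chr13:23738557-23738856, plus strand: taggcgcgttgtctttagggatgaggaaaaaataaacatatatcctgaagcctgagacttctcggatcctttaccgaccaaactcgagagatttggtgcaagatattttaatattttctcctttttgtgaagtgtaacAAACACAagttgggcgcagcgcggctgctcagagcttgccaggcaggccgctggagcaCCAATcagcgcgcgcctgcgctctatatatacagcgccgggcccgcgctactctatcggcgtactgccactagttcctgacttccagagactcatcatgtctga
H2ac19, chr3:96240325-96240624, minus strand: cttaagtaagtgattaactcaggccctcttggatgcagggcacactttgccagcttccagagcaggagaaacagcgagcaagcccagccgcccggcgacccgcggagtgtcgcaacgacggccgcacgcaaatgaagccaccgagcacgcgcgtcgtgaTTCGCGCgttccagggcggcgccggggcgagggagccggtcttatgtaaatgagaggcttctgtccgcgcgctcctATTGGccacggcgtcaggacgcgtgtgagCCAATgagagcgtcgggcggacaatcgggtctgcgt
H3c11, chr13:21783348-21783647, minus strand: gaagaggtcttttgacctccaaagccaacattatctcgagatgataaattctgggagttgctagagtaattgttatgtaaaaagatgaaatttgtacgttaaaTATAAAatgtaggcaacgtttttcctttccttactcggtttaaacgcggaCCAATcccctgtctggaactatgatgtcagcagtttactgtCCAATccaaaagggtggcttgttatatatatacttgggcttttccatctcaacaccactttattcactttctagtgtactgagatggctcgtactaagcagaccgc
H2az1, chr3:137864237-137864536, plus strand: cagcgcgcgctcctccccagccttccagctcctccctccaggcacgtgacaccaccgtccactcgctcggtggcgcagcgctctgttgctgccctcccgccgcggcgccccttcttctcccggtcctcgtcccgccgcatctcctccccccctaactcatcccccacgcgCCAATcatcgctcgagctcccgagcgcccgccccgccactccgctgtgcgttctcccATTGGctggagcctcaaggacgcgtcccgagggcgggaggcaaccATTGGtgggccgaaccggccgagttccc
H1f10, chr6:87981433-87981732, minus strand: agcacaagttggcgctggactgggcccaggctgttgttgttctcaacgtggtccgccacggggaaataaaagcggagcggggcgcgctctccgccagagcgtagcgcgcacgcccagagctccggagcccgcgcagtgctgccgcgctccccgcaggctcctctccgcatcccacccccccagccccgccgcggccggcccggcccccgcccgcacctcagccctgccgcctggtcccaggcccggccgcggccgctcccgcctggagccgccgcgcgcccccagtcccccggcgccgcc

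The H1f2 window held the H1 box and a CCAAT box, and that of H2ac19 an E2F site and CCAAT boxes. The H3c11 window had CCAAT boxes and a TATA match, the H2az1 window only CCAAT boxes, and the H1f10 window no match. Over all 60 windows of replication-dependent genes in RefSeq, 85% held CCAAT, against 64.7% of 17 replacement windows and 37.4% of all 32851 windows. TATAAA was in 55% of replication-dependent windows, in 11.8% of replacement windows and in 13.6% of all. The E2F letters were in 18.3%, 0% and 1.59% in the same order, and the octamer core in 20%, 5.88% and 4.02%. TTTGAA was in 46.7% of replication-dependent windows, in 17.6% of replacement windows and in 17.9% of all. Within the replication-dependent genes, AAACACA was in 4 of 5 H1 windows and TTTGAA in 12 of 16 H2B windows. The 2 higher replacement variants shown thus share no motif of this list, since the H1f10 window has none.

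**Figure D4:**
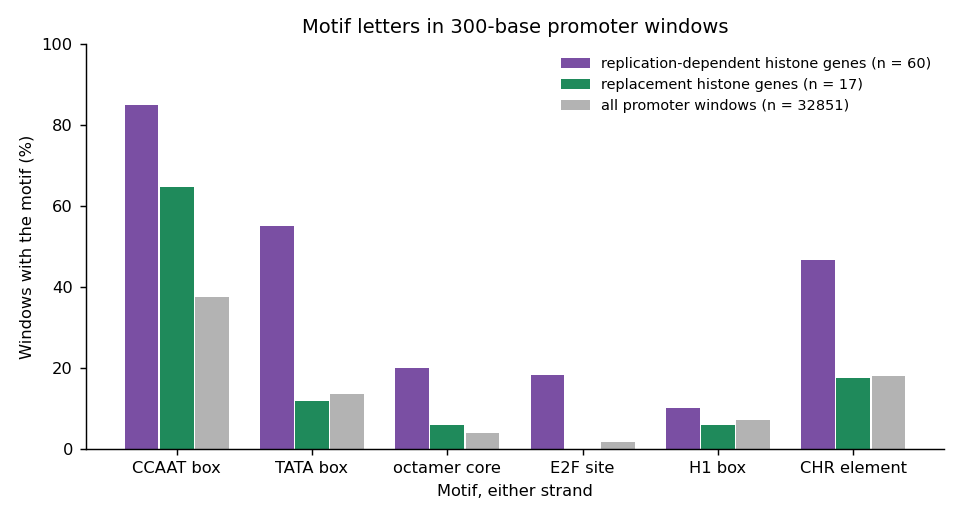
Share (%) of 300-base RefSeq promoter windows that hold each motif on either strand, for replication-dependent histone genes (60 windows), replacement histone genes (17) and all windows (32851). Replication-dependent windows have the largest share for each of the 6 motifs; a match is a description of letters, not of binding.

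Genes that make, process and place histones were set beside the histone genes. In the list of histone mRNA synthesis and 3′ processing, 28 genes were measured. In the Ad-PDK4 pool 6 of them were 1.5-fold higher or more and 0 were lower by as much, and the median log2 difference was 0.27. This is 21.4% higher, beside the 11.0% higher and 5.58% lower over all measured genes. Some of the 6, Slbp and Npat among them, have another probe set below 0. Ccne2, a cyclin of S phase entry, was highest (615 in the Ad-PDK4 pool, 236 in the Ad-control pool, log2 difference 1.40), followed by Hinfp, a factor of H4 gene transcription (259 and 127 in the same order, 1.05). Nfyb, a subunit of the CCAAT-binding factor NF-Y (-0.56), and Fip1l1, of the polyadenylation machinery (-0.39), were the lowest, each with another probe set above 0. Slbp, which binds the histone mRNA stem-loop, had 1721 in the Ad-PDK4 pool and 1124 in the Ad-control pool (0.63), but its second probe set gave -0.30. Npat, the coactivator of histone gene clusters, gave 0.61 and -0.61 on its 2 probe sets, so neither direction is settled. Casp8ap2, another factor of the histone locus body, gave -0.02.

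In the list of histone chaperones and exchange factors, 33 genes were measured. Of these, 8 were higher by 1.5-fold or more, 0 were lower by as much, and the median log2 difference was 0.27. This is 24.2% higher, beside the same shares over all genes. The 8 include Cenpa, itself a histone, and Mcm2, which is also in the S phase list. Cenpa, the centromeric H3 variant that the naming rule does not take in, had 1149 in the Ad-PDK4 pool and 215 in the Ad-control pool, a log2 difference of 2.43. Mcm2, a helicase subunit that also binds H3 and H4, had 929 in the Ad-PDK4 pool and 176 in the Ad-control pool (2.42). Chaf1b, of the assembly factor that loads H3 and H4 behind the fork, had 411 in the Ad-PDK4 pool and 175 in the Ad-control pool (1.25), and its partner Asf1b had 337 and 78.5 in the same order, at least 3.64-fold higher. Nasp, a chaperone of H3 and H4, gave 0.30, with probe sets from -0.08 to 0.45. Znhit1 (-0.41) and Ep400 (-0.29), of complexes that exchange H2A.Z, were the lowest. Both lay within 1.5-fold, and centring on the poly-A spike-ins would turn both above 0.

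In the list of histone modifying enzymes, 41 genes were measured. Of these, 6 were higher and 1 lower by 1.5-fold or more, and the median log2 difference was 0.08. These are 14.6% and 2.44%, beside 11.0% and 5.58% over all measured genes. The list also holds genes that are not enzymes, such as Mdc1, and some of the 6 are also in the G2 and M phase list. Mdc1, which binds phosphorylated H2A.X and recruits repair factors, had 329 in the Ad-PDK4 pool and 114 in the Ad-control pool (log2 difference 1.55). Ezh2, the H3K27 methyltransferase, had 719 in the Ad-PDK4 pool and 302 in the Ad-control pool (1.27). Kat2a, an acetyltransferase, was the only enzyme at least 1.5-fold lower (-0.64), and Suz12, the partner of Ezh2, gave -0.40 on its brightest probe set and 0.20 on another. Mdc1 and H2ax, its binding partner, were both higher.

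**Figure D5:**
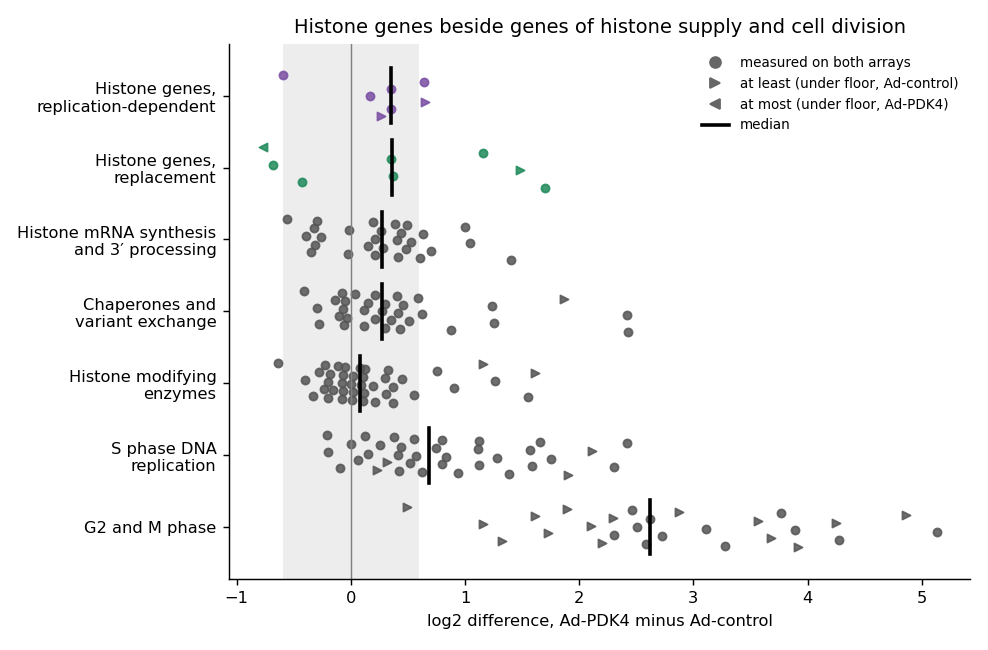
Log2 difference (Ad-PDK4 minus Ad-control) of the measured replication-dependent and replacement histone genes and of 5 gene lists, 1 point per gene, with bounds as triangles, the median as a bar and the within-1.5-fold range in grey. The histone genes with a probe set of their own (class medians 0.35 and 0.36) lie below the medians of the S phase (0.68) and G2 and M phase (2.62) lists. Shared probe sets are not drawn, and the 11 measured shared replication-dependent sets had a median of 0.68.

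Markers of dividing cells also differed between the pools. Of 36 measured S phase genes, 19 (52.8%, beside 11.0% over all measured genes) were higher by 1.5-fold or more. Lower by as much were 0 (beside 5.58% over all genes), and the median log2 difference of the S phase genes was 0.68. The genes above the floor on both arrays lay between Mcm2 and Prim1 (2.30), a primase subunit, at the top and Mcm10 (-0.21) and Gmnn (-0.20), regulators of replication origins, at the bottom. Of 27 measured G2 and M phase genes, 26 (96.3%, beside the same 11.0%) were higher by 1.5-fold or more, and the median was 2.62. Those above the floor on both arrays ran from Tpx2 (2.31, with another probe set at -0.46), a spindle assembly factor, and Nek2 (2.47), a centrosomal kinase, to Ccnb2 (4.28), a mitotic cyclin, and Cdc20 (5.13), the activator of the anaphase-promoting complex. Their part in the histone differences was not tested.

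Other cell types were checked by their markers. All 13 measured exocrine pancreas markers were at least 1.5-fold higher in the Ad-PDK4 pool, where 11.0% of all measured genes were. The summed signal of this list was 91445, against 11544 in the Ad-control pool. Of 9 measured skeletal muscle markers, 6 were at least 1.5-fold lower, where 5.58% of all measured genes were. The summed signal of the muscle list was 3332 in the Ad-PDK4 pool and 5974 in the Ad-control pool. The 9 measured hepatocyte markers all lay within 1.5-fold, with sums of 544548 and 585360 in the same order. Markers of T and NK cells were under the floor on both arrays for 9 of 15 genes, those of B and plasma cells for 3 of 8, of macrophages for 1 of 10, of neutrophils and their precursors for 4 of 9, of erythroid cells for 5 of 7 and of male germ cells for 8 of 10. The counts of these cell types stand beside the same 11.0% higher and 5.58% lower over all genes, and in such short lists 1 gene moves a share strongly. Of the measured ones, 0 of 6 T and NK, 0 of 5 B and plasma, 0 of 9 macrophage, 3 of 5 neutrophil, 0 of 2 erythroid and 0 of 2 germ cell markers were at least 1.5-fold higher. At least 1.5-fold lower were 1 of 6 T and NK, 0 of 5 B and plasma, 2 of 9 macrophage, 0 of 5 neutrophil, 0 of 2 erythroid and 1 of 2 germ cell markers. The macrophage genes were Vsig4 (log2 difference -1.19) and Clec4f (-1.13), and the germ cell gene was Prm1 (-1.10), all named after their values were seen. No marker was listed at 0. The part of these cells in the histone differences was not tested.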

How the data were processed

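Each pool was hybridised to 1 array, and 1 linear signal intensity per probe set was deposited for 45101 probe sets. The deposited intensity values run from 0.1 to 136056 (Ad-PDK4) and from 0.2 to 134096 (Ad-control), and their mean without the top and bottom 2% was 500 on both arrays. How the authors summarised, corrected or scaled them was not given in the sources used here. Per the labels' protocols, 10 ug of total RNA per pool gave biotinylated cRNA. Gene names came from the platform annotation (34945 probe sets with 1 symbol, 932 with several), updated through RefSeq GRCm38.p6, and older histone names came from its synonyms. After 64 control probe sets were set aside, log2 differences were centred (shift -0.01), signals under the 50th percentile of an array counted as under the floor, and each gene was read by its brightest probe set. Named were all measured histone genes and, of each gene list, the 2 highest and 2 lowest genes above the floor on both arrays, with Slbp, Npat, Casp8ap2, Cenpa, Nasp, Asf1b and Chaf1b. Chaf1a and Hjurp were not analysed here. The members and lists were chosen with earlier results of these data known. Python 3.11.15, numpy 2.4.6, pandas 2.3.3 and statsmodels 0.14.6 were used, and the calculation was tested on simulated data. With 1 array per group no test was made, and the number of arrays limits the precision. Alternatives were other floors, centrings and probe set rules.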

Additional observations from a re-analysis of the deposited data

How the results depend on the processing

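A value counts as moved when it shifted by more than the SD between probe sets of a gene (0.35), and a count when it changed by more than 1.5 times. The signs of the leading histone genes held, but the counts of the small classes did not. H2ax ranged from 1.68 to 2.24, H2az1 from 0.93 to 1.70 and H1f10 from 1.41 to 2.02 under the alternatives that gave a value. The upper ends come from centring on the poly-A spike-ins. Centring on either kind of control adds a positive constant, which could not turn these signs. Of the 15 measured histone genes, only H2aj changed sign, to 0.11 with centring on the poly-A spike-ins. A bound could not pass 0 by construction. The sign was thus fixed for a gene wherever it had only a bound, as H1f10, H3c7, H3c11 and Macroh2a2 mostly did. Under a floor at the 30th percentile the median of the replacement variants was -0.0070 and the replication-dependent minus replacement difference 0.34. There 12 replacement variants were measured, and those added were dim members under the chosen floor on both arrays. Under a floor at the 70th percentile, 0 replication-dependent genes were higher, 0 were lower and 0 replacement variants were lower. The replication-dependent genes at least 1.5-fold higher and lower were 1 and 0 with loess centring, and also 1 and 0 after quantile normalization. The higher count was 1 with the median over probe sets and 1 when probe sets with cross-matching probes were left out, where 1 replacement variant was lower. Some alternatives were chosen after seeing the data. With centring on the poly-A spike-ins the medians were 0.89 (replication-dependent) and 0.91 (replacement), with 6 higher and 0 lower in the replication-dependent class and 5 and 0 in the replacement class. With centring on the hybridization controls these counts were 4 and 0, and 5 and 0. Both settings add a constant to every gene, and the share over all genes was not computed under them. The counts under these settings therefore cannot be set against the 11.0% and 5.58% above. With the symbols of the annotation alone the counts were 0 and 0, and 1 and 1. With shared probe sets added, 5 replication-dependent readings were higher. At 2-fold, with bounds taken at the bound, 0 replication-dependent genes were higher, 0 lower, and 0 replacement variants lower. The cause of these shifts was not tested, apart from the spike-in settings, which add a constant. No paired analysis was possible because each group is 1 array. Dim genes limit the reading: 9 of 24 members were under the floor on both arrays.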
